A study of Mus musculus with 6 samples.

Results

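The genes followed here serve inhibitory transmission: Gad1, Gad2, Slc32a1, Slc6a5, Slc6a9, Slc6a11 and Abat, 7 of the 55416 genes counted in the deposited files. They make, load, retrieve or break down GABA and glycine, the main inhibitory transmitters of the central nervous system. They were chosen by that role, and with the difference between cKO and control libraries already known for some of them (Gad1 above all), so the values of that comparison are given for them as a description and are not tested.

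The libraries came from cells labelled as oligodendrocyte precursors, the dividing progenitors of myelin-forming cells, taken from mouse cortex at postnatal day 11. The 3 Ift88 cKO pools were Pdgfra-Cre, homozygous for the floxed Ift88 allele (fl/fl), and carried RosaEYFP. The 3 Ift88 control pools were Pdgfra-Cre and RosaEYFP as well and kept 1 wild-type copy of Ift88 (fl/wt), so both groups shared the Cre driver, the reporter and at least 1 floxed allele. Cre was driven by the Pdgfra promoter, each pool held cells of 4 to 6 mice, and the spread between samples is therefore a spread between pools. Ift88 encodes a protein needed to build the primary cilium, and the study asked what cilia do in these cells.

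GABA is made from glutamate by glutamate decarboxylase, which exists as a constitutively active form (GAD67, from Gad1) and a form enriched at nerve terminals (GAD65, from Gad2). Both GABA and glycine are packed into synaptic vesicles by the same carrier, VGAT, the product of Slc32a1. Glycinergic terminals take glycine back through GlyT2 (Slc6a5), glia take it up mainly through GlyT1 (Slc6a9), astrocytes take up GABA through GAT-3 (Slc6a11), and GABA transaminase (Abat) degrades it. In the cerebral cortex, inhibitory neurons use GABA and carry no GlyT2, whereas glycinergic neurons are typical of the spinal cord and hindbrain.

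Depth was even in 5 libraries, with 11773548 to 13909236 counts, and low in cKO replicate 2, with 568509 counts. With no count seen, the level (in CPM, the count scaled to the library total) could still be as high as 5.28 CPM in cKO replicate 2 and 0.216 to 0.255 CPM in the other libraries, taking 3 counts as the limit. These limits, and the pooled bounds and intervals below, cover counting error only and leave out the spread between pools. Nor can PCR duplicates be separated here from independent molecules. The shallow cKO replicate 2 also stood apart in its make-up: 10 choroid plexus markers summed to 590, 48122 and 872 CPM in cKO replicates 1 to 3 and to 359, 163 and 126 CPM in controls, so results are given with and without it. The targeted gene does not check the labels: Ift88 had 1, 0 and 305 counts in the cKO libraries and 143, 32 and 167 counts in the controls, and a tag near the 3' end can lie outside the floxed exons, which are not named in the sources used here. Of 22 precursor markers, 8 had 0 counts in all 6 libraries, among them Sox10, Gpr17, Tnr and Nkx2-2, and the list summed to 312, 7.04 and 368 CPM in cKO libraries and 366, 560 and 320 CPM in controls. The 15 pan-neuron markers summed to 9567, 2181 and 9859 CPM in cKO libraries and 8442, 6767 and 2526 CPM in controls. At least 20 counts were reached by 13, 2 and 15 of these markers in cKO replicates 1 to 3 and by 14 in each control. RNA of neuronal marker genes was thus measured in libraries labelled as precursor cells, and its summed level differed between pools.

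Sequences just before the annotated starts of 3 of the genes are shown because Gad1, Gad2 and Slc6a5 had no count, or a single count, in the cKO libraries. The stretches come from RefSeq on GRCm38.p6 (the counts were made on GRCm39), lie on the plus strand, are written 5′ to 3′ and stop before the first annotated exon. In Gad1, capitals mark the letters of a TATA box (TATAAA or its complement), and the Gad2 and Slc6a5 stretches hold none of the motifs searched.
Gad1, chr2:70561879-70562041: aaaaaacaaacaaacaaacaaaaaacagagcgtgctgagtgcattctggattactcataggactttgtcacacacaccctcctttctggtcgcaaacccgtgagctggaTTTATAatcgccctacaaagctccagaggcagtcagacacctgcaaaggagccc
Gad2, chr2:22622077-22622204: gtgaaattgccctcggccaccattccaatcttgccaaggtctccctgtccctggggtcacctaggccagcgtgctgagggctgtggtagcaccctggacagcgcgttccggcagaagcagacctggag
Slc6a5, chr7:49910049-49910145: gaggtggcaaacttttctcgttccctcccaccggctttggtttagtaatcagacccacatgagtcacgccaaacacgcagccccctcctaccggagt

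The series title names CREB, the factor that binds the cAMP response element TGACGTCA and its shorter core TGACG, so these letters were searched on both strands in the 250 bases before each start. The full element was in none of the windows of the 6 members that had one, against 1.55% of all 32851 windows of that length in the table. The core was found in Gad2 beginning 33 bases before the RefSeq start, in the first window of Slc6a5 beginning 34 bases before it, and in 1 window of Slc6a9. In all, 17.8% of windows hold it, and every full element contains it. Gad1, Slc32a1 and Slc6a11 held no core. The homeodomain letters TAATTA (in 4.84% of windows) and the E-box CAGCTG (13.0%) were in none of these windows, and the TATA letters (12.4%) were in that of Gad1 only. A match is a run of letters and not a shown binding site. All these cores, that of Slc6a9 included, lie past the point where an exon annotated by GENCODE M21 begins. They thus precede the start by RefSeq only. The cores of Gad2 and Slc6a5, in capitals, stand in these short stretches, which lie beyond the trimmed sequences above.
Gad2, chr2:22622284-22622308: atttcccttcCGTCActctctcatc
Slc6a5, chr7:49910255-49910279: tgcttcccacTGACGcaaacccagc

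The 2 synthesis genes were at or next to 0 in every cKO library and high in control replicates 1 and 2. Gad1 (ENSMUSG00000070880, GRCm39 chromosome 2, 70383416 to 70432358) had 0 counts in each of the 3 cKO libraries and 992, 901 and 61 counts in the controls. In CPM this was 0 in every cKO library, against 72.7, 70.6 and 4.50 CPM in the controls, so the groups did not overlap, although control replicate 3 was 16.2-fold below control replicate 1. With the cKO libraries pooled and set at 3 counts, Gad1 was at least 428-fold lower in cKO samples, and at least 418-fold lower without cKO replicate 2. In a bulk sample, fewer cells of a type and less RNA per cell cannot be told apart.

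Gad2 (ENSMUSG00000026787, chromosome 2, 22512217 to 22583886) had 0, 1 and 0 counts in the cKO libraries and 373, 299 and 1 counts in the controls. Its level was 0, 1.76 and 0 CPM in cKO libraries and 27.3, 23.4 and 0.0737 CPM in controls. Control replicate 3 thus lay with the cKO libraries and not with the other controls, and the single count of cKO replicate 2 was enough to make the groups overlap. The pooled ratio of control over cKO was 442 with an exact 95% interval of 79.0 to 17481, and without cKO replicate 2 Gad2 was at least 144-fold lower in cKO samples. Among the 20339 genes with a count, 0.605% had at most 1 count in control replicate 3 and at least 100 in both other controls, as Gad2 did. The same gap was found for 0.737% of genes with control replicate 1 as the low library and for 1.62% with control replicate 2.

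The vesicular carrier was also low in cKO libraries, but not absent. Slc32a1 (ENSMUSG00000037771, chromosome 2, 158452687 to 158457668) had 187, 0 and 41 counts in cKO libraries and 1048, 1377 and 61 counts in controls. This was 13.4, 0 and 3.48 CPM in cKO libraries against 76.8, 108 and 4.50 CPM in controls. The groups overlapped, because control replicate 3 lay between cKO replicates 1 and 3. The mean was 5.64 ± 6.98 CPM in cKO samples (8.46 CPM without replicate 2) and 63.1 ± 53.1 CPM in controls (SD, n = 3 each).

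The gene of the glycinergic terminal, Slc6a5 (ENSMUSG00000039728, chromosome 7, 49559894 to 49613604), had 0 counts in all 3 cKO libraries. In the controls it had 176, 107 and 0 counts, or 12.9, 8.39 and 0 CPM. Control replicate 3 was at 0 like the cKO libraries, and the groups overlapped at 0. Pooled, Slc6a5 was at least 61.9-fold lower in cKO samples, or at least 60.6-fold lower without cKO replicate 2. These bounds are for the pooled counts and leave out the spread among the controls.

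Together these 4 genes of inhibitory neurons summed to 13.4, 1.76 and 3.48 CPM in cKO libraries and 190, 210 and 9.07 CPM in controls. The high values came from control replicates 1 and 2 alone, and control replicate 3, at 9.07 CPM, lay between cKO replicates 1 and 3. That library also had the lowest level of the general neuronal tubulin gene Tubb3, 913 CPM, against 2219 and 2727 CPM in the other controls. Tubb3 did not follow the 4 genes in the cKO libraries, where it was 2212, 1615 and 2422 CPM. Per 1000 CPM of Tubb3 there were 6.08, 0 and 1.44 CPM of Slc32a1 in cKO libraries and 34.6, 39.6 and 4.92 CPM in controls. Tags are read once near the 3' end, so these levels need no correction for transcript length.

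The shallow library carries less weight for the rarer genes. At the control mean, the depth of cKO replicate 2 would have given 28.0 counts of Gad1, 35.9 of Slc32a1, 9.63 of Gad2 and 4.03 of Slc6a5. The count seen was 0 for Gad1, Slc32a1 and Slc6a5 and 1 for Gad2, and for Slc6a5 that lies near the counting limit. The zeros of cKO replicates 1 and 3 were measured at the depth of the controls.

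**Figure D1:**
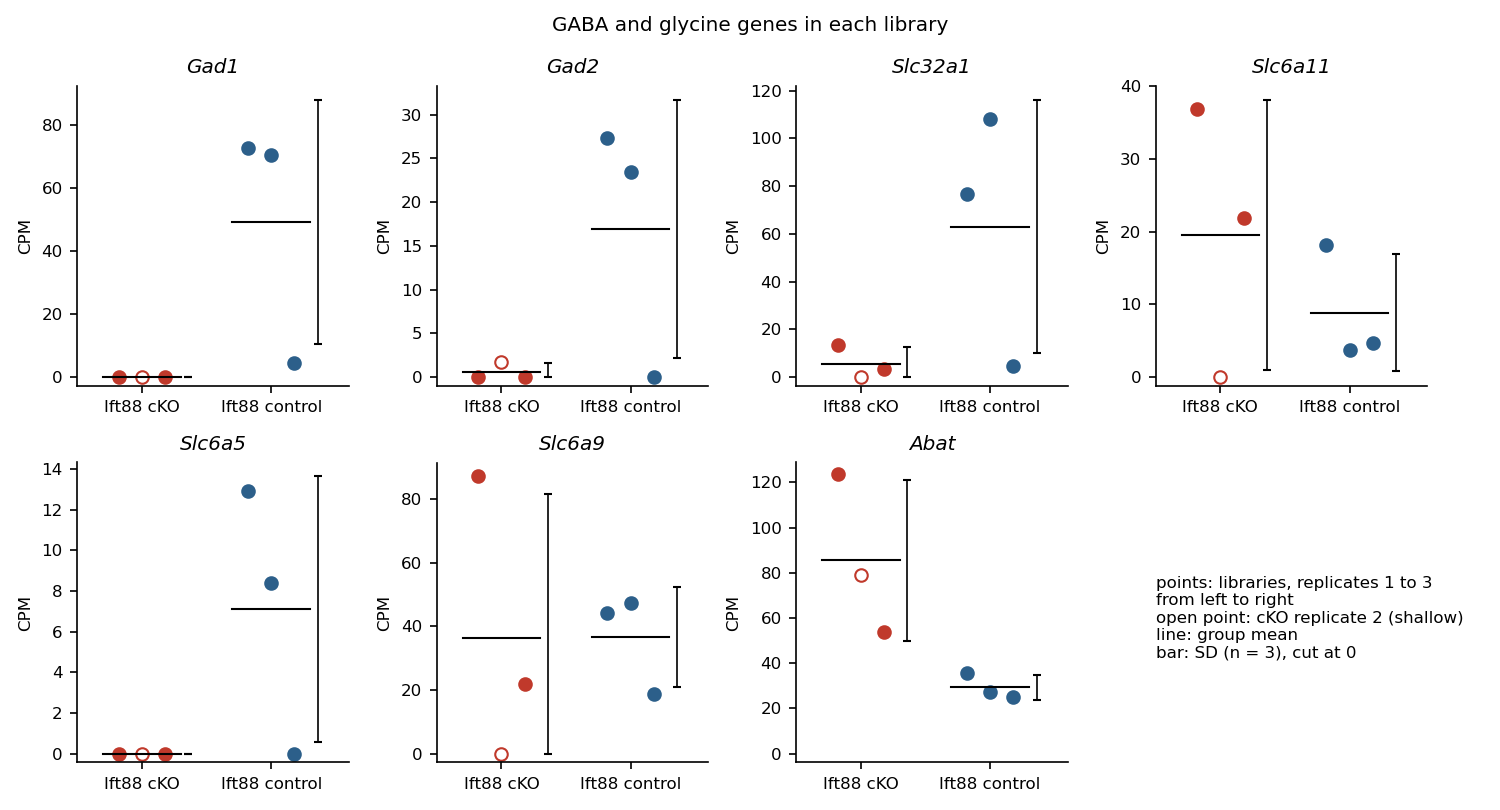
Level of each gene in each library in CPM, on a linear axis from 0, with Ift88 cKO on the left and Ift88 control on the right; points are replicates 1 to 3 from left to right, the open point is the shallow cKO replicate 2, lines are means and bars SD (n = 3), drawn down to 0 at most. Gad1, Gad2, Slc32a1 and Slc6a5 were high in control replicates 1 and 2 only, while Abat was at 53.7 CPM or more in every cKO library and at most 35.7 CPM in the controls.

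The genes of uptake and breakdown took another course. Abat (ENSMUSG00000057880, chromosome 16, 8331293 to 8439432) had 1722, 45 and 632 counts in cKO libraries and 488, 349 and 342 counts in controls. This was 124, 79.2 and 53.7 CPM in cKO libraries and 35.7, 27.4 and 25.2 CPM in controls. All cKO libraries lay above all controls, including the shallow one, and the controls lay close together. The means were 85.5 ± 35.5 CPM in cKO samples (88.7 CPM without replicate 2) and 29.4 ± 5.57 CPM in controls (SD, n = 3 each).

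The glial GABA carrier gene Slc6a11 (ENSMUSG00000030307, chromosome 6, 114108202 to 114226913) had 513, 0 and 257 counts in cKO libraries and 248, 48 and 63 counts in controls. In CPM this was 36.9, 0 and 21.8 in cKO libraries and 18.2, 3.76 and 4.64 in controls. Both deep cKO libraries lay above all controls, and the 0 of cKO replicate 2 lay below them. At the mean of the other cKO libraries 16.7 counts would have been seen in that library.

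The glial glycine carrier gene Slc6a9 (ENSMUSG00000028542, chromosome 4, 117691703 to 117732395) had 1211, 0 and 257 counts in cKO libraries and 605, 602 and 254 counts in controls. Its levels of 87.1, 0 and 21.8 CPM in cKO libraries enclosed those of the controls, 44.3, 47.2 and 18.7 CPM. The means were 36.3 ± 45.3 CPM in cKO samples (54.4 CPM without replicate 2) and 36.7 ± 15.7 CPM in controls (SD, n = 3 each). The spread within the cKO group was larger than any difference between the group means.

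Summed over Slc6a11, Slc6a9 and Abat, the level was 248, 79.2 and 97.3 CPM in cKO libraries and 98.2, 78.3 and 48.6 CPM in controls. In cKO replicate 2 the whole sum was Abat. Astrocyte RNA did not differ in the same way: 15 astrocyte markers summed to 1065, 682 and 920 CPM in cKO libraries and 1106, 1276 and 787 CPM in controls. All cKO libraries lay below all controls for 7 of the 15 and above them for 1, Slc1a3, against 11.1% and 1.33% of all tested genes; 11 of the 15 were tested. Aldh1l1 was at 0 in every cKO library and had at least 93 counts in each control, Mlc1 likewise with at least 77, and Gjb6 and Acsbg1 were at 0 in all 6 libraries. The part of the astrocyte share in these results was not tested.

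**Figure D2:**
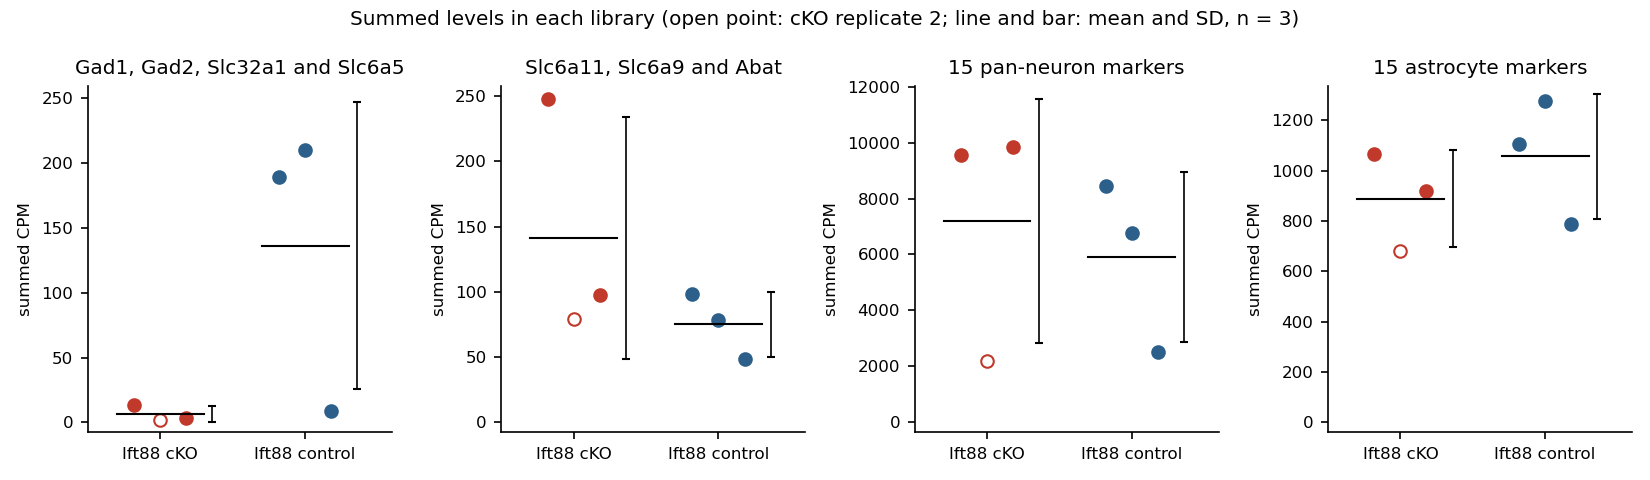
Summed CPM in each library of the 4 genes of inhibitory neurons, of the 3 genes of uptake and breakdown, of 15 pan-neuron markers and of 15 astrocyte markers, with Ift88 cKO left and Ift88 control right; the open point is cKO replicate 2, lines and bars are mean and SD (n = 3). Control replicate 3 was the lowest control in all 4 panels, and cKO replicates 1 and 3 were low for the 4 inhibitory genes while their pan-neuron sums, 9567 and 9859 CPM, were above every control.

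In the fit across all genes, 6 of the 7 genes passed the filter on low counts with all 6 libraries, Slc6a5 being left out, and all 7 passed without cKO replicate 2. None of the 7 was among the genes called at an adjusted p under 0.05 (edgeR quasi-likelihood, Benjamini-Hochberg): these were 0.0156% of 12833 genes with all 6 libraries, 0.00779% higher and 0.00779% lower, and 0.00687% of 14562 without cKO replicate 2. With RLE scaling, which called 0.125% of 12833 genes, Gad1 was among those called as lower and the other 5 tested were not. Since Gad1 was chosen with this comparison known, that call is a description and not a test of it. The fitted log2 fold change, cKO over control, was -12.12 (SE 3.09) for Gad1, -6.34 (SE 3.08) for Gad2 and -3.41 (SE 1.88) for Slc32a1 with all 6 libraries. It was 1.52 (SE 1.78) for Abat, 1.16 (SE 1.90) for Slc6a11 and 0.00 (SE 1.71) for Slc6a9. The median of all tested genes was -0.44 in that fit and -0.06 without cKO replicate 2, so the values are to be read from those medians.

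Leaving out cKO replicate 2 narrowed the errors more than it moved the values, except for Gad2. Without it the log2 fold change was -12.37 (SE 2.28) for Gad1, -10.83 (SE 3.68) for Gad2, -2.89 (SE 1.32) for Slc32a1 and -9.58 (SE 4.53) for Slc6a5. It was 1.61 (SE 0.54) for Abat, 1.73 (SE 1.10) for Slc6a11 and 0.59 (SE 0.75) for Slc6a9. Fitted values for a gene at 0 in a group depend on the small count that the fit adds, and the counting bounds above do not. Slc6a9 changed sign between settings, down to -1.74 without cKO replicate 1.

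**Figure D3:**
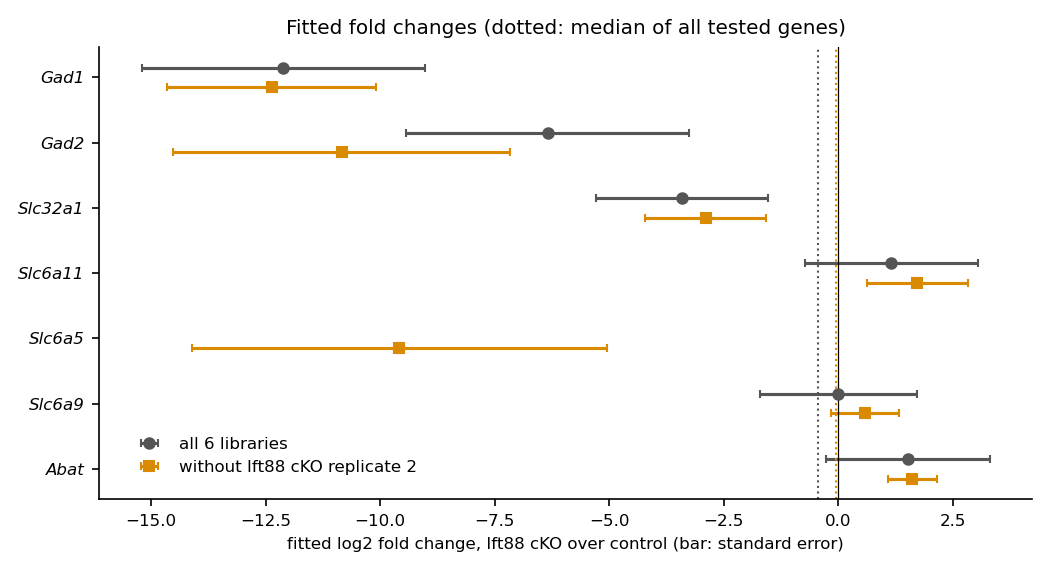
Fitted log2 fold change, Ift88 cKO over control, with its standard error, for each gene with all 6 libraries (circles) and without cKO replicate 2 (squares); dotted lines are the medians of all tested genes, -0.44 and -0.06. Gad1, Gad2, Slc32a1 and Slc6a5 lay below the medians, Slc6a11 and Abat above them, and Slc6a5 has no value with all 6 libraries because it did not pass the filter.

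Whether the groups overlapped was compared with all genes tested. All cKO libraries lay below all controls for 1 of the 7 genes, Gad1, and for 11.1% of 12833 tested genes; all lay above for 1 gene, Abat, and for 1.33% of tested genes. Without cKO replicate 2, Gad1 and Gad2 were below, as were 12.6% of 14562 tested genes, and Abat and Slc6a11 were above, as were 13.0%. Zeros were also counted. With all 6 libraries, 0.795% of tested genes had 0 counts in every cKO library and at least 20 in at least 2 controls, as Gad1 did. Without cKO replicate 2 the share was 2.87%, and Gad1, Gad2 and Slc6a5 met it. With up to 1 count allowed in each cKO library, as in Gad2, the shares were 1.18% and 3.67%. The reverse pattern, 0 in every control and at least 20 counts in cKO replicates 1 and 3, held for 0.0234% and 0.611% of tested genes. Its rule was unlike the first, asking for counts in both deep cKO libraries and not in any 2 controls. With all 6 libraries, a gene at 0 in every control also passed the filter only with counts in cKO replicate 2. The shares of the 2 directions are therefore not to be set against each other. These shares are a background only, since the 7 genes were chosen with the comparison known.

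All 7 genes lie on the plus strand, and Gad1, Gad2 and Slc32a1 are on chromosome 2. None shares any of its last 500 exon bases, where 3' tags mostly fall, with another annotated gene. Slc32a1 shares 24.9% of all its exon bases with Gm14205 and Slc6a9 30.2% with Gm17114, Ccdc24 and B4galt2, all on the other strand. The neighbours of Gad1 were counted in cKO libraries: Gorasp2, 59.6 kb after it, had 1240, 213 and 2027 counts in cKO libraries and 2374, 1580 and 2899 in controls. Sp5, 75.3 kb before it, had 100, 0 and 97 counts in cKO libraries and 0 in every control.

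The genes whose profiles were most like those of each member were found among 10990 genes by Pearson r of log2(CPM + 1) over the 6 libraries, as a description of few points that share library and depth. For Gad1 they were Gbx1 (r = 0.989), a homeobox gene of dorsal spinal inhibitory neurons, Slc30a3 (r = 0.986), which encodes the zinc carrier of glutamatergic vesicles, and Cox19 (r = 0.979). All 3 were at 0 in every cKO library and lowest of the controls in replicate 3. Slc32a1 was most like Lamp5 (r = 0.974), which encodes a membrane protein of some interneurons, then Ldha (0.963) and Gadd45a (0.960). Gad2 was most like Asb16, Kcng2 and Nol3 (r = 0.970 to 0.971) and Slc6a5 most like Dgat2, Grik3 and Trhde (r of 0.9998 or more), all 6 at 0 in the cKO libraries and in control replicate 3. For these genes r rests on the 2 libraries with counts. Slc6a11 was like Pid1 (r = 0.998) and Tcaf1 (r = 0.991), of which Pid1 had 667, 0 and 293 counts in cKO libraries and 247, 47 and 59 in controls. Slc6a9 was most like Pelo, Baz1b and the kainate receptor gene Grik2 (r = 0.995 to 0.996), and Abat most like Gsk3b (r = 0.962), Dock9 and Parp8.

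Among the 7 genes themselves, r was high between the 4 neuronal genes and negative between Gad1 and Abat. Over 6 libraries Gad1 had r = 0.901 with Gad2, 0.945 with Slc6a5 and 0.854 with Slc32a1, all on log2(CPM + 1), and -0.737 with Abat. In control replicates 1 and 2, Gad1 counts were 2.66 and 3.01 times those of Gad2, while control replicate 3 had 61 counts of Gad1 and 1 of Gad2. By level, the control means ran from Slc32a1 (63.1 ± 53.1 CPM) and Gad1 (49.3 ± 38.8 CPM) over Slc6a9 (36.7 ± 15.7 CPM), Abat (29.4 ± 5.57 CPM) and Gad2 (16.9 ± 14.7 CPM) to Slc6a11 (8.86 ± 8.07 CPM) and Slc6a5 (7.09 ± 6.54 CPM; SD, n = 3). No pair of neighbours in that order differed by more than the larger of their SDs. In cKO samples Abat came first with 85.5 ± 35.5 CPM, and Slc6a9 (36.3 ± 45.3 CPM), Slc6a11 (19.6 ± 18.5 CPM), Slc32a1 (5.64 ± 6.98 CPM) and Gad2 (0.586 ± 1.02 CPM) followed, with Gad1 and Slc6a5 at 0.

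Core transcription factors of forebrain interneurons were at or near 0 in most libraries, those with Gad1 included. Of 31 genes of forebrain GABA interneuron identity, 8 had 0 counts in all 6 libraries, among them Dlx2, Nkx2-1 and Sp9. Dlx5 and Dlx6 had 1 count each, Lhx6 had 44 counts in cKO replicate 3 and 0 elsewhere, and Dlx1 had 138 counts in control replicate 2 and 0 elsewhere. These factors, picked here after their values were seen, define interneurons of the cortex, the labelled tissue. A zero need not mean absence, since Sox10, a defining gene of the labelled cells, was also at 0. Of 17 tested genes of the list, none was called in either edgeR fit, nor with DESeq2 or limma-voom, which were run on all 6 libraries. DESeq2 gave no adjusted p to any tested member. A gene not called by DESeq2, here or in the lists below, may therefore have had no adjusted p. At an unadjusted p under 0.05, 3 of 17 passed with all 6 libraries (Reln, Sp8 and Sst) and 4 of 17 without cKO replicate 2, against 2.83% of 12833 and 6.09% of 14562 tested genes. The median log2 fold change of the list was -0.20, against -0.44 for all tested genes, and 0.39 against -0.06 without cKO replicate 2.

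The most abundant genes of that list went in both directions. Maf, a transcription factor of interneurons from the medial ganglionic eminence and of other cells, had 5118, 115 and 4472 counts in cKO libraries and 1572, 1100 and 1773 in controls, or 317 ± 99.3 against 111 ± 22.6 CPM (SD, n = 3), with no overlap between the groups. Its log2 fold change was 1.51 (SE 1.36), and 1.77 (SE 0.29) without cKO replicate 2, and it was not called (edgeR adjusted p = 1 and 0.44). All cKO libraries lay above all controls for 1 of the 31 genes and below them for 2. For all 12833 tested genes the shares were 1.33% and 11.1%. Reln, which encodes reelin, had a log2 fold change of 2.64 (SE 1.21), with 0 counts in cKO replicate 2 and values above all controls in the other cKO libraries. Sst, the precursor of somatostatin, had 1140, 3 and 806 counts in cKO libraries and 3453, 12204 and 491 in controls, and the groups overlapped. Sp8, a factor of some interneurons, had 0 counts in each cKO library and at least 74 in each control.

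Inhibitory genes of the hindbrain and spinal cord were also counted. Their 16 genes summed to less than the 31 of the forebrain list, which gave 2135, 976 and 1616 CPM in cKO libraries and 1084, 1647 and 548 CPM in controls. A single gene could make up much of the forebrain sum: Reln stood at 879 CPM in cKO replicate 1 and Sst at 957 CPM in control replicate 2. These sums therefore do not rank the kinds of neuron. Of the 31 forebrain genes, 15, 2 and 16 had at least 20 counts in cKO replicates 1 to 3 and 17 in each control. Of 16 hindbrain and spinal genes, 3 (Tal1, Dmrt3 and En1) had 0 counts in all 6 libraries, and 8 to 10 had at least 20 counts in each control, and 5, 0 and 7 did so in cKO replicates 1 to 3. The hindbrain and spinal list summed to 121, 0 and 111 CPM in cKO libraries and 184, 294 and 68.0 CPM in controls. Lbx1, a regulator of dorsal spinal inhibitory neurons, had 0, 0 and 76 counts in cKO libraries and 640, 896 and 177 counts in controls, with no overlap (log2 fold change -4.23 with SE 1.99; not called, edgeR adjusted p = 1). Gbx1 had 0 counts in every cKO library and 208, 131 and 42 in controls, and Lhx1 had 0, 0 and 1 counts in cKO libraries and 349, 162 and 154 in controls. All cKO libraries lay below all controls for 3 of the 16 genes, of which 9 were tested, against 11.1% of 12833 tested genes. Tfap2b had 331, 0 and 159 counts in cKO libraries and 611, 863 and 264 in controls, and the groups overlapped, as they did for Tfap2a, with 538, 0 and 98 counts in cKO libraries and 256, 630 and 132 in controls.

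Not all genes of that list were low in cKO libraries. Gata2, a determinant of some ventral spinal and midbrain GABA neurons, had 322, 0 and 74 counts in cKO libraries and 0 in every control, and Wt1 had 321, 0 and 767 counts in cKO libraries and 48, 1 and 36 in controls. None of 9 tested genes was called, nor any of 11 without cKO replicate 2, by edgeR, or by DESeq2 and limma-voom on all 6 libraries. At an unadjusted p under 0.05 there were 3 (Gbx1, Lhx1 and Lbx1) and 4 (Wt1, Gbx1, Gata2 and Lhx1), against 2.83% and 6.09% of all tested genes. The median log2 fold change was -1.79 against -0.44 for all tested genes, and -1.23 against -0.06 without cKO replicate 2. Lhx1, Gbx1, Gata2, Wt1, Sp8, Tal1, Dmrt3 and En1 were named here after their values were seen.

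**Figure D4:**
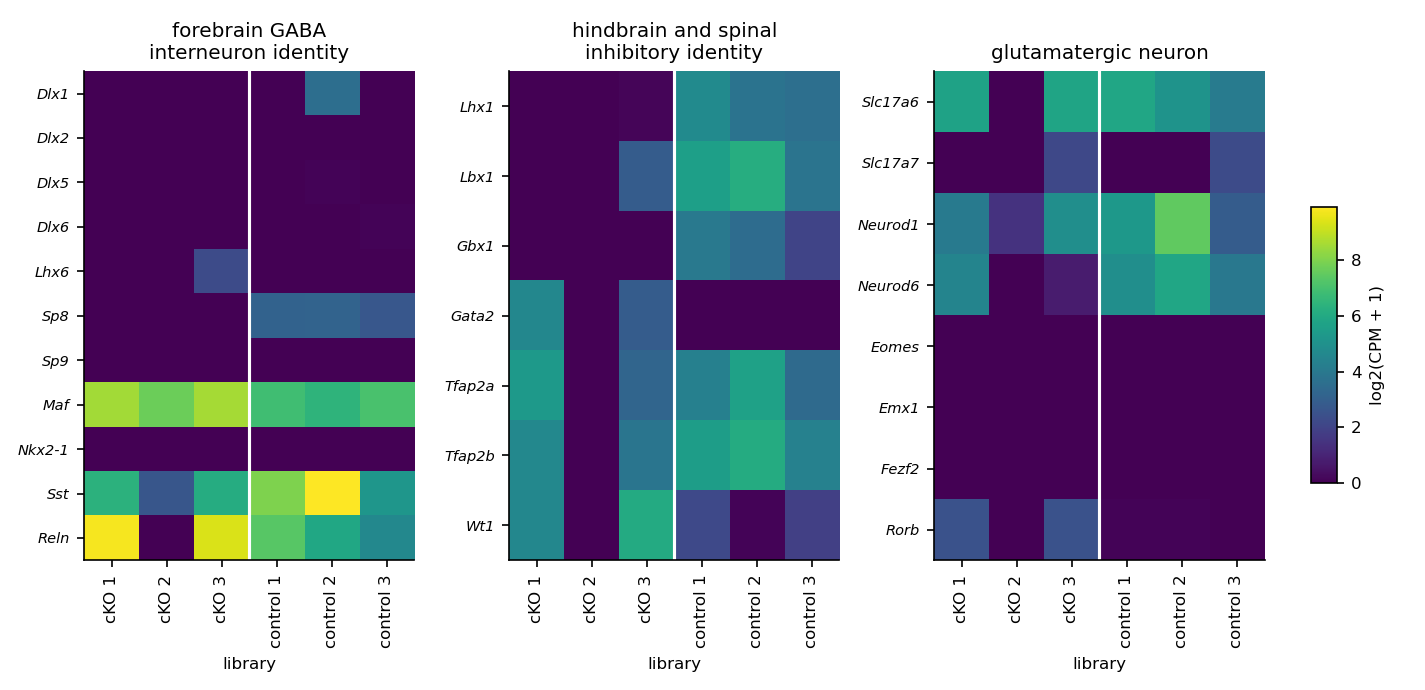
Level as log2(CPM + 1) in each library, cKO left of the white line and control right, of the genes named in the text from the lists of forebrain GABA interneuron identity, of hindbrain and spinal inhibitory identity and of glutamatergic neurons. Both inhibitory lists also hold genes at 0 in all 6 libraries, 8 of 31 and 3 of 16, most of which are not drawn; Lbx1, Gbx1 and Lhx1 had higher levels in the 3 controls than in any cKO library.

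Among markers of glutamatergic neurons, the subcortical carrier gene was counted in 5 libraries and the cortical one in 2. Slc17a6, the vesicular glutamate carrier gene of subcortical and spinal neurons, had 707, 0 and 639 counts in cKO libraries and 789, 419 and 220 in controls. Slc17a7, its cortical counterpart, had 0, 0 and 41 counts in cKO libraries and 0, 0 and 51 in controls. Of the 17 genes of the list, 4 were at 0 in all 6 libraries. Emx1, Fezf2 and Eomes, named after their values were seen, were among these. In CPM, Slc17a6 was 50.8, 0 and 54.3 in cKO libraries and 57.8, 32.8 and 16.2 in controls, so in cKO replicates 1 and 3 it lay within the range of the controls, where Slc32a1 was lower than in control replicates 1 and 2. The ratio of Slc17a6 to Slc32a1 counts was 3.78 and 15.6 in cKO replicates 1 and 3 and 0.753, 0.304 and 3.61 in the controls. Other transcription factors of glutamatergic neurons in the list were counted. Neurod1 had 213, 1 and 341 counts in cKO libraries and 524, 2282 and 87 in controls. Neurod6 had 296, 0 and 8 counts in cKO libraries and 389, 734 and 199 in controls. None of 8 tested genes, or of 12 without cKO replicate 2, was called by edgeR, or by DESeq2 and limma-voom on all 6 libraries. At an unadjusted p under 0.05 there were 0 and 1 (Rorb), against 2.83% and 6.09% of all tested genes. The glutamatergic list had a median log2 fold change of -1.20 against -0.44 for all tested genes, and -0.66 against -0.06 without cKO replicate 2.

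The enzymes and carriers around the GABA cycle ranged from abundant to undetected, and none was called. Of 13 genes of GABA and glutamate metabolism, 8 were tested with all 6 libraries and 11 without cKO replicate 2, with no call by edgeR, or by DESeq2 and limma-voom on all 6 libraries. At an unadjusted p under 0.05 there were 0 and 1, against 2.83% and 6.09% of all tested genes. Glud1, glutamate dehydrogenase, had 3726, 1 and 3411 counts in cKO libraries and 6105, 5214 and 4095 in controls. Its cKO libraries lay below all controls, as did those of 11.1% of 12833 tested genes. Glul, the glutamine synthetase of astrocytes, had 190 ± 91.0 CPM in cKO samples and 213 ± 40.4 CPM in controls (SD, n = 3), and Akr7a5, which reduces succinate semialdehyde, 62.5 ± 52.7 against 125 ± 40.1 CPM. Aldh5a1, which oxidises the semialdehyde that Abat releases, had 67, 0 and 38 counts in cKO libraries and 0 in every control, and was named after its values were seen. The median log2 fold change of the list was -1.01 against -0.44 for all tested genes, and -0.46 against -0.06 without cKO replicate 2.

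Other carriers of the SLC6 family overlapped between the groups with all 6 libraries. Slc6a8, the creatine carrier, had 1501, 2 and 1574 counts in cKO libraries and 1578, 2507 and 2665 in controls, and Slc6a6, the taurine carrier, 413, 0 and 15 against 3, 72 and 357. Of 5 genes, 3 were tested with all 6 libraries and 4 without cKO replicate 2, with none called by edgeR, or by DESeq2 and limma-voom on all 6 libraries and none at an unadjusted p under 0.05. Its genes had a median log2 fold change of 0.05 against -0.44 for all tested genes, and 1.14 against -0.06 without cKO replicate 2.

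Genes that make and cleave glycine included a mitochondrial enzyme that was low in cKO libraries. Shmt2, which forms glycine from serine, had 1124, 1 and 1820 counts in cKO libraries and 9392, 5246 and 3347 in controls. The mean was 79.1 ± 76.4 CPM in cKO samples (118 CPM without replicate 2) and 449 ± 223 CPM in controls (SD, n = 3), with no overlap. Its log2 fold change was -2.52 (SE 1.27), or -1.95 (SE 0.53) without cKO replicate 2, and it was not called (edgeR adjusted p = 1 and 0.77). All cKO libraries lay below all controls for 2 of the 12 genes of this list, against 11.1% of 12833 tested genes. Psat1, of serine synthesis, had 286 ± 115 against 245 ± 78.6 CPM, and Dld, a subunit shared by the glycine cleavage system and other complexes, 72.0 ± 43.9 against 134 ± 16.6 CPM. None of the 10 tested genes was called in either fit by edgeR, or by DESeq2 and limma-voom on all 6 libraries. In both fits 1, Shmt2, had an unadjusted p under 0.05, against 2.83% and 6.09% of all tested genes. The glycine and serine list had a median log2 fold change of -1.06 against -0.44 for all tested genes, and -0.60 against -0.06 without cKO replicate 2.

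On the receiving side, the listed genes summed to more in the deep cKO libraries than in any control, an order that rested on Clptm1. The 21 genes of inhibitory receptors, their scaffold and chloride transport summed to 2209, 635 and 1975 CPM in cKO libraries and 1784, 1043 and 936 CPM in controls. Glra2, the glycine receptor subunit of immature neurons, had 7474, 0 and 5077 counts in cKO libraries and 5988, 2269 and 761 in controls. Clptm1, which retains GABA-A receptors in the endoplasmic reticulum, had 554 ± 245 CPM in cKO samples (693 CPM without replicate 2) and 451 ± 48.0 CPM in controls (SD, n = 3). It was the largest part of the sum in every library, with 733, 274 and 654 CPM in cKO libraries and 442, 408 and 503 CPM in controls. The order of the sums depends on this gene, which is neither a receptor nor a scaffold gene. With Clptm1 left out, cKO replicate 3 would not lie above control replicate 1. None of 15 tested genes was called, nor any of 17 without cKO replicate 2, by edgeR, or by DESeq2 and limma-voom on all 6 libraries, and 0 and 3 (Slc12a5, Clptm1 and Nlgn2) had an unadjusted p under 0.05, as had 2.83% and 6.09% of all tested genes. The median log2 fold change of the list was 0.24 against -0.44 for all tested genes, and 0.67 against -0.06 without cKO replicate 2.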

How the data were processed

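Total RNA went into QuantSeq 3' FWD libraries, per the labels' protocols. What the authors deposited are unnormalized counts for each gene from featureCounts 2.0.0 on exons of the Ensembl release 104 annotation of GRCm39, per the file headers. The command names no strand option and no multi-mapping reads, so partners on opposite strands cannot be told apart and reads with several alignments were left out by default. STAR, FastQC and DESeq2 are named in the submitters' processing notes; molecular identifiers are not mentioned in the sources used here.

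Symbols were matched by gene identifier (52083 of 55416); where 2 identifiers carried a symbol, that with more counts was used. CPM were counts scaled to the total of a library, without TMM. Genes kept by filterByExpr were scaled by TMM in edgeR 4.0.16 (R 4.3.3) and compared, cKO against control and two-sided, by the quasi-likelihood functions glmQLFit (robust) and glmQLFTest, adjusted by Benjamini-Hochberg over all tested genes with a threshold of 0.05. The same was done without cKO replicate 2. Standard errors were the size of the log2 fold change divided by the square root of F. As alternatives, DESeq2 1.42.0, RLE or upper-quartile scaling in edgeR, limma-voom (limma 3.58.1), other filters, a replicate block, a threshold of 0.10 and leaving out each library were tried; RLE and upper-quartile scaling without cKO replicate 2 were added after the data were seen. Simulated counts served to check the edgeR step.

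The 7 genes, 7 pathway lists and 7 marker lists were chosen with earlier results of these data known. Named were the members, Ift88, the 3 genes of each pathway list with the largest summed count, and the 3 tested genes most correlated with each member (summed count of at least 60; predicted models and pseudogenes left out); other genes were named after their values were seen. Some genes that the rule selects are not reported here. Promoter windows were those of RefSeq on GRCm38.p6, matched by symbol for 6 of 7 members. Windows were trimmed at the first exon of GENCODE M21.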

Additional observations from a re-analysis of the deposited data

How the results depend on the processing

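With all 6 libraries, edgeR's quasi-likelihood test called 1 gene higher and 1 lower in cKO samples among 12833. RLE scaling gave 14 higher and 2 lower, upper-quartile scaling 0 and 0, DESeq2 3 and 2, limma-voom 6 and 2, no filter 22 higher and a filter of 5 CPM in 3 samples 2 higher. Leaving out each library gave 0 to 6 higher and 1 lower in each case. Without cKO replicate 2, RLE and upper-quartile scaling both gave 0 higher. The log2 fold changes of Gad1, Gad2, Slc32a1 and Slc6a5 stayed below 0 and those of Slc6a11 and Abat above 0 in every setting that gave a value; Gad1 ran from -12.57 to -8.01, Gad2 from -10.88 to -4.66, Slc32a1 from -4.99 to -2.63, Slc6a11 from 0.31 to 2.27 and Abat from 1.08 to 5.02, the last under upper-quartile scaling. Slc6a9 reversed to -0.63 with limma-voom, -0.015 with the 5 CPM filter, -0.86 with the replicate block, -1.74 without cKO replicate 1 and -0.32 without control replicate 3; leaving out single libraries gave -1.74 to 0.59, and the cause was not tested. Gad1 and Gad2 have no value under the 5 CPM filter, and Slc6a5 has one only with no filter, without each cKO replicate or without control replicate 3. Of the 7 genes, Gad1 was called as lower under RLE scaling and in no other setting with an adjusted p. DESeq2 gave no adjusted p to any tested member. The Gad1 call is a description only, since that gene was chosen with the comparison known. No pathway list gained a call in any setting, though genes without an adjusted p in DESeq2 could not be called there. The median log2 fold change of all tested genes was -0.44 with TMM, -0.28 with RLE and -0.01 with upper-quartile scaling.

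Deviations of same-numbered libraries correlated only weakly, at 0.0791, 0.0511 and 0.0112 for replicates 1 to 3. Each cKO library correlated best with the control of its own number. Control replicate 3 did not, with 0.0130 for cKO replicate 2. These values do not settle whether the replicate numbers pair the samples. With the replicate block 0 genes were higher and 1 lower.

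The depth of cKO replicate 2 limits its values, and the common dispersion was 1.79 with all 6 libraries and 1.32 without that one.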
